A study of Mus musculus with 96 samples.

Results

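Other nuclear receptor genes are taken here as 32 genes for ligand-regulated and orphan receptors outside the clock receptors, PPARα, the LXRs, FXR and HNF4α. They were found by symbol among 25095 gene symbols in the RNA-seq tables, and the RefSeq transcript with the highest mean stood for its gene. Values are RPKTM, which is 10 times the usual RPKM, and were quantile normalized within each table. Of the 32 receptors, 24 exceeded 5 RPKTM in at least 3 hepatocyte libraries and were tested.

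Hepatocytes and liver macrophages came from male C57BL/6J mice that received an adeno-associated virus with the hepatocyte promoter TBG at 8 weeks of age and then a high-fat and high-sucrose diet (D12492i) for 4 weeks. Mice carried floxed alleles, and the virus brought GFP to Control mice and CRE to the others, to delete Nr1d1 and Nr1d2 (REV-ERBα and REV-ERBβ) in RevDKO, these and Scap in RevScapTKO, and Scap alone in ScapKO. SCAP is the chaperone that SREBP transcription factors need for their activation. Each group has 3 libraries for each cell type at ZT4, ZT10, ZT16 and ZT22, with lights on at ZT0 and off at ZT12. Macrophages are not the cells in which TBG drives CRE. ScapKO libraries were normalized in tables of their own that hold no Control, so their levels are compared only among themselves. That the 3 libraries of a group come from separate mice rests on the methods, which call them biological replicates.

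Nuclear receptors are transcription factors with a zinc finger DNA-binding domain and a ligand-binding domain. Many bind AGGTCA-type half-sites, alone or in pairs, and RXR is the common partner of the receptors for thyroid hormone, retinoic acid, fatty acids, drugs and vitamin D. In liver they are known for the control of drug metabolism, bile acid synthesis, lipid storage and the glucocorticoid response. REV-ERBα and REV-ERBβ belong to the same superfamily and repress genes through the corepressor NCoR.

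The targeted genes and the make-up of the libraries were read first. Scap was lower in RevScapTKO than in Control hepatocytes (209 ± 63.5 against 495 ± 73.1 RPKTM, SD, n = 12 each, limma, adjusted p = 2.87e-08). Nr1d1 went against its label as a mean over the 4 times, since RevDKO hepatocytes held more of it (138 ± 108 against 90.7 ± 119 RPKTM in Control, log2 difference 1.55 ± 0.25 SE, adjusted p = 8.87e-05). At ZT4, its highest time in Control, the means were 244 RPKTM in RevDKO and 257 in Control, and RevDKO was higher at the 3 later times. Nr1d2 differed by 0.62 (adjusted p = 0.0626). The values are gene totals that do not resolve the deleted exons, so they do not check the deletion, and every direction below is that of the libraries labelled RevDKO. Macrophage markers, all 10 of which were found, summed to 227 to 2995 RPKTM in Control, 369 to 2303 in RevDKO and 901 to 6027 in RevScapTKO hepatocyte libraries, and 9 of 10 hepatocyte markers were found and summed to at least 434710. The median sum of macrophage markers in Control was 449 RPKTM at ZT4 and 2448 at ZT22. The lowest median correlation of a hepatocyte library with the others was 0.890, whereas 5 macrophage libraries lay under 0.8 (Control ZT22 replicate 2, RevDKO ZT10 replicate 2, RevDKO ZT16 replicates 1 and 2 and RevDKO ZT22 replicate 2). ScapKO hepatocyte samples are called macrophages in one label field and hepatocytes in their titles. Their hepatocyte markers summed to at least 394544 RPKTM and their macrophage markers to at most 3276. Xist stood at 129.7 RPKTM in ScapKO hepatocyte ZT16 replicate 3 and at no more than 14.96 in the other 11 libraries of that table, although all mice are labelled male.

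In hepatocytes 9 receptors averaged over 100 RPKTM, 14 lay between 5 and 100, and 9 at or below 5. Rxra, the common dimer partner, led with 1198 ± 188 RPKTM (SD, n = 36), followed by Nr1i3 (the drug receptor CAR) with 581 ± 150 and Nr3c1 (the glucocorticoid receptor) with 526 ± 84.7. Next came Nr5a2 (LRH-1, a regulator of bile acid synthesis) with 247 ± 42.3, Thrb (thyroid hormone receptor β) with 214 ± 43.7 and Nr1i2 (the drug receptor PXR) with 211 ± 34.4. Nr2c2 (the orphan TR4), Nr2f6 (the orphan EAR2) and Nr3c2 (the mineralocorticoid receptor) followed with 189 ± 28.5, 175 ± 52.9 and 133 ± 38.2. From Nr1i3 to Nr3c2 only the step from Nr3c1 to Nr5a2 was larger than the SDs of the neighbours. The 8 receptors that did not pass the filter were Vdr, Esr2, Esrrb, Hnf4g, Nr2f1, Nr4a2, Nr4a3 and Nr5a1. Vdr was listed at 0 in all 12 Control libraries, and Nr5a1, the steroidogenic factor of adrenal and gonad, was listed at 0 in all libraries but 1 Control library. Nr2c2, Nr2f6 and Nr1i3 share 38.6%, 54.4% and 51.4% of their exon bases with a gene on the other strand (Mrps25, Ocel1 and Tomm40l). The libraries were made with a stranded kit, but whether reads were counted by strand is not given in the sources used here, so the levels of these 3 genes are uncertain.

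**Figure D1:**
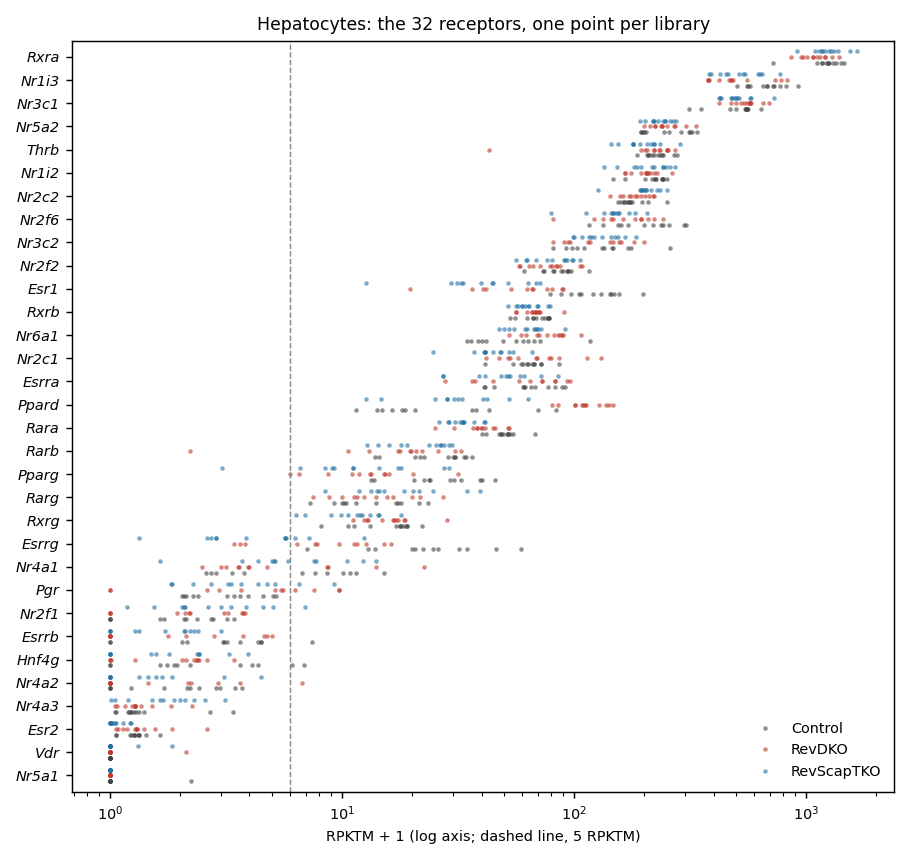
Level of each of the 32 receptors in the 36 hepatocyte libraries, as RPKTM + 1 on a log axis, with 1 point per library coloured by genotype. Genes are ordered by their mean, from Nr5a1 (at the bottom) to Rxra (1198 RPKTM), and the dashed line marks 5 RPKTM. Ppard in RevDKO (79.3 to 146 RPKTM) lies mostly above Control (10.5 to 83.04).

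The first question was which receptors differ when hepatocytes lose the REV-ERBs. Of the 24 tested receptors, 6 passed an adjusted p of 0.05 between RevDKO and Control, averaged over the 4 times. Ppard and Nr6a1 were higher, and Esr1, Esrrg, Pparg and Nr1i3 were lower. Of all 13326 genes tested, 4.43% passed, 2% higher and 2.43% lower. The median log2 difference was -0.08 over the 24 receptors and -0.01 over all genes. In such bulk libraries, fewer cells of a type and less RNA per cell cannot be told apart.

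Ppard encodes PPARδ, a receptor for fatty acids. In Control it was 17.2, 13.2 and 13.9 RPKTM at ZT4, 10.5, 15.5 and 17.7 at ZT10, 19.7, 35.5 and 36.9 at ZT16 and 41.9, 68.9 and 83.04 at ZT22. In RevDKO it was 100.1, 79.3 and 108 RPKTM at ZT4, 100.3, 84.6 and 107 at ZT10, 141, 110.2 and 137 at ZT16 and 128, 146 and 112 at ZT22. Control libraries were low in the light phase and highest at ZT22, RevDKO libraries were high at all times, and the groups did not overlap at any of the 4 times, which held for 0.428% of all genes in this direction. Ppard was 4.29-fold higher in RevDKO (log2 difference 2.10 ± 0.19 SE, limma, adjusted p = 1.79e-09). All folds are ratios of RPKTM + 1, and so they are smaller than the true ratio where a gene is low. In RevScapTKO Ppard was 24.1, 27.3 and 27.5 RPKTM at ZT4, 62.3, 13.7 and 30.7 at ZT10, 51.5, 41.1 and 32.1 at ZT16 and 39.8, 11.7 and 29.4 at ZT22. Every one of these lay below the RevDKO libraries of its time, as held for 1.40% of all genes, and Ppard was 3.65-fold lower than in RevDKO (log2 difference -1.869 ± 0.19, adjusted p = 4.68e-09). Against Control the RevScapTKO libraries were higher at ZT4, where the groups did not overlap, and lower at ZT22, where they did not overlap either, and the daily means differed by 0.23 (95% interval -0.14 to 0.61, adjusted p = 0.338).

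Nr6a1, the orphan receptor GCNF of germ cells and early embryos, was the other gene that rose. Its Control values were 55.05, 70.6 and 117 RPKTM at ZT4, 59.1, 33.7 and 48.5 at ZT10, 66.4, 37.4 and 62.7 at ZT16 and 39.2, 35.1 and 40.7 at ZT22. In RevDKO they were 88.95, 80.9 and 107 RPKTM at ZT4, 85.8, 61.1 and 69.5 at ZT10, 58.1, 68.3 and 75.7 at ZT16 and 51.8, 84.3 and 88.04 at ZT22. The groups overlapped at ZT4 and ZT16 and were apart at ZT10 and ZT22. Nr6a1 was 1.44-fold higher (log2 difference 0.52 ± 0.13, adjusted p = 0.013). RevScapTKO libraries ranged from 46.5 to 90.3 RPKTM and passed against neither group (adjusted p = 0.121 against RevDKO and 0.134 against Control).

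The 250 bases before the annotated transcript start are printed for 4 of these 6 receptors, because members of the superfamily bind AGGTCA-type sites. They were read from mm9 on the strand of the gene, and capitals mark AGGTCA on either strand and CACGTG, the E-box of the CLOCK and BMAL1 factors. The windows are chr17:28369449-28369698 on the plus strand (Ppard), chr2:38640036-38640285 on the minus strand (Nr6a1), chr1:189475870-189476119 on the plus strand (Esrrg) and chr1:173143851-173144100 on the plus strand (Nr1i3).
Ppard: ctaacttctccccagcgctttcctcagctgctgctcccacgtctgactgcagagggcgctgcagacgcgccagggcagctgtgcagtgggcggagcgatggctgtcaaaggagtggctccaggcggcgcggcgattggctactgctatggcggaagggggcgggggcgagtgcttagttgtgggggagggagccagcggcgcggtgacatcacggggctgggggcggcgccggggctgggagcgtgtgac
Nr6a1: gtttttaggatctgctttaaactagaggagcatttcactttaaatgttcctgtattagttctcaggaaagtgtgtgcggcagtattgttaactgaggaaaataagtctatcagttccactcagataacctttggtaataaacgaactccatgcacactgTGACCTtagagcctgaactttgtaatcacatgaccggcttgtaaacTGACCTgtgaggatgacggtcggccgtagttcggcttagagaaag
Esrrg: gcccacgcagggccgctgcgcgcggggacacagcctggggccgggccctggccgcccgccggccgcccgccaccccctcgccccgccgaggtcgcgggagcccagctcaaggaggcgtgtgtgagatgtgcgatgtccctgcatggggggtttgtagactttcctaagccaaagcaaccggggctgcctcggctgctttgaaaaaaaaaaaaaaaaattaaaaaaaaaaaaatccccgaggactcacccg
Nr1i3: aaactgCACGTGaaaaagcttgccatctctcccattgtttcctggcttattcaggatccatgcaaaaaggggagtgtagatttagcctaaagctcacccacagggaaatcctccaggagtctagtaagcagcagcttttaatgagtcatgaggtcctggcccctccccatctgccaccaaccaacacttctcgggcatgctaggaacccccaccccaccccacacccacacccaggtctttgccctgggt
The Nr6a1 window holds 2 AGGTCA matches, 91 and 45 bases before the start, and the Nr1i3 window holds a CACGTG, 244 bases before it. The windows of Ppard, Esrrg, Esr1 and Pparg hold neither, nor TAGGTCA, TGACGTCA or TTATGCAA. Of the promoters of 13310 genes that passed the hepatocyte filter, 11.3% held AGGTCA on either strand and 1.86% held the longer TAGGTCA that contains it. CACGTG was held by 8.11%, TGACGTCA by 2.5% and TTATGCAA by 0.624%. Promoters of 31 receptors were read, all but that of Nr3c1, and they include those of the 8 receptors that did not pass this filter. Of the 31, 4 held AGGTCA (Thrb, Rxrg, Nr5a2 and Nr6a1) and 4 held CACGTG (Rara, Nr1i3, Esr2 and Nr4a2). TGACGTCA was held by 1 (Nr4a2), and TAGGTCA and TTATGCAA by none. Esr2 and Nr4a2 are among the receptors that did not pass, so the 2 sets of promoters are not alike. These are matches of letters only, and binding was not measured.

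Among the steroid receptors Esr1, for oestrogen receptor α, was lower in RevDKO. In Control it was 96.6, 77.8 and 119.6 RPKTM at ZT4, 104, 86.9 and 142 at ZT10, 149, 198 and 143 at ZT16 and 156, 130.1 and 106 at ZT22. In RevDKO it was 40.7, 52.8 and 39.7 RPKTM at ZT4, 35.5, 18.7 and 65.4 at ZT10, 75.3, 61.8 and 89.2 at ZT16 and 64.98, 79.6 and 87.5 at ZT22. Every RevDKO library was below every Control library of its time, as held for 0.510% of all genes in this direction. Esr1 was 2.20-fold lower (log2 difference -1.14 ± 0.19, adjusted p = 0.000113). RevScapTKO libraries held 28.4, 11.8 and 43.6 RPKTM at ZT4, 32.4, 67.6 and 43.4 at ZT10, 30.3, 51.01 and 38.6 at ZT16 and 62.2, 70.7 and 31.8 at ZT22. They too were below Control at each time, as held for 1.85% of all genes in this direction, and 3.07-fold lower on average (log2 difference -1.62 ± 0.19, adjusted p = 6.77e-08), and differed from RevDKO by -0.48 (95% interval -0.86 to -0.10, adjusted p = 0.0557). The other steroid receptors that were tested, Nr3c1, Nr3c2 and Pgr, passed in no comparison of mean levels in hepatocytes.

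Esrrg encodes oestrogen-related receptor γ, an orphan receptor known for mitochondrial and gluconeogenic genes. Its Control values were 45.3, 57.95 and 23.7 RPKTM at ZT4, 31.1, 25.1 and 33.7 at ZT10, 11.9, 12.9 and 21.5 at ZT16 and 19.6, 6.09 and 19.2 at ZT22. RevDKO gave 15.3, 14.2 and 8.72 RPKTM at ZT4, 10.3, 6.80 and 11.6 at ZT10, 2.83, 10.7 and 5.43 at ZT16 and 2.64, 2.44 and 6.66 at ZT22. RevScapTKO gave 4.70, 4.70 and 0.338 RPKTM at ZT4, 11.5, 1.73 and 5.28 at ZT10, 6.25, 1.9 and 4.75 at ZT16 and 1.64, 1.86 and 2.87 at ZT22. RevDKO overlapped with Control at ZT22 alone (1.55% of all genes were lower without overlap at 3 or more times), and RevScapTKO overlapped with Control at no time (1.85% of all genes were lower without overlap at each time). Esrrg was 2.87-fold lower in RevDKO than in Control (log2 difference -1.52 ± 0.27, adjusted p = 0.000395) and 1.90-fold lower in RevScapTKO than in RevDKO (-0.93 ± 0.27, adjusted p = 0.0122). Only 3 of the 12 RevScapTKO libraries exceeded 5 RPKTM.

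Pparg encodes PPARγ, the receptor that drives lipid storage. It was 39.4, 44.6 and 19.4 RPKTM at ZT4, 31.6, 22.8 and 28.1 at ZT10, 38.5, 12.3 and 29.6 at ZT16 and 21.6, 12.8 and 22.9 at ZT22 in Control. RevDKO libraries had 14.4, 30.6 and 14.96 RPKTM at ZT4, 12.3, 14.2 and 19.3 at ZT10, 5.54, 10.1 and 7.68 at ZT16 and 4.99, 10.8 and 12.2 at ZT22. RevScapTKO libraries had 8.27, 16.5 and 17.003 RPKTM at ZT4, 10.2, 26.6 and 13.5 at ZT10, 2.05, 7.49 and 10.2 at ZT16 and 8.09, 27.9 and 5.58 at ZT22. RevDKO overlapped with Control at ZT4 alone (1.55% of all genes were lower without overlap at 3 or more times). The lowest value of each genotype, Control included, stood in the dark phase. Pparg was 2.05-fold lower in RevDKO (log2 difference -1.03 ± 0.25, adjusted p = 0.0104) and 2.24-fold lower in RevScapTKO (-1.16 ± 0.25, adjusted p = 0.000642) than in Control.

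Nr1i3 encodes CAR, the receptor that induces Cyp2b genes. Control libraries held 506, 681 and 726 RPKTM at ZT4, 821, 679 and 924 at ZT10, 772, 559 and 560.1 at ZT16 and 655, 721 and 572 at ZT22. RevDKO libraries held 419, 486 and 559 RPKTM at ZT4, 781, 733 and 825 at ZT10, 379, 467 and 380.4 at ZT16 and 378, 473 and 476 at ZT22. RevScapTKO libraries held 535, 630.2 and 380.1 RPKTM at ZT4, 776, 461 and 619 at ZT10, 544, 516 and 452 at ZT16 and 389, 646 and 426 at ZT22. RevDKO overlapped with Control at ZT4 and ZT10 and lay below it at ZT16 and ZT22. Nr1i3 was 1.32-fold lower in RevDKO (log2 difference -0.40 ± 0.11, adjusted p = 0.0209, and 0.0537 without Control ZT16 replicate 1) and 1.292-fold lower in RevScapTKO (-0.37 ± 0.11, adjusted p = 0.00684) than in Control.

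**Figure D2:**
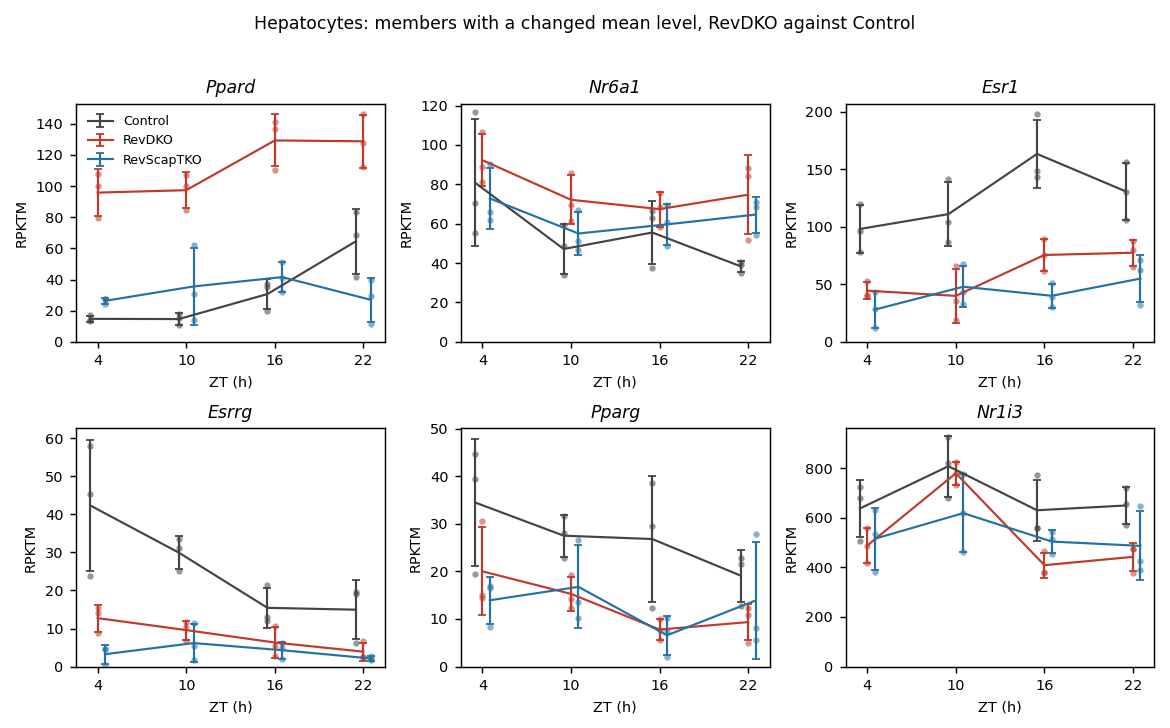
Levels in RPKTM of the 6 receptors that passed between RevDKO and Control hepatocytes, over ZT in hours. Points are libraries, lines join means of 3 libraries, and bars are SD, coloured by genotype. RevDKO stands above both other genotypes for Ppard, while Esr1, Esrrg and Pparg are low in RevDKO and RevScapTKO.

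The second question was what the added loss of Scap changed. Between RevScapTKO and RevDKO hepatocytes 4 of 24 receptors passed, all lower in RevScapTKO (Ppard, Nr2c1, Esrrg and Rxrg), while 26.2% of all genes passed, 13.5% higher and 12.7% lower. Against Control 9 of 24 passed, all lower, while 35.9% of all genes passed, 17.3% higher and 18.7% lower. The shares of receptors called, 16.7% and 37.5%, are thus below and near those of all genes. All of these receptors were lower, beside 12.7% and 18.7% of all genes called lower, and the first share is near that value. Most of these calls were lost with the macrophage marker score as a covariate, as given below. The 3 comparisons share libraries and are not independent. Further receptors passed when 1 library was left out. Between RevScapTKO and RevDKO these were Esr1 (adjusted p of 0.0159 to 0.0463 without RevDKO ZT10 replicate 2 or RevScapTKO ZT4 replicate 1 or 3, ZT10 replicate 2, ZT16 replicate 2 or ZT22 replicate 2) and Esrra (0.0259 to 0.0473 without RevDKO ZT4 replicate 2, ZT10 replicate 2 or ZT22 replicate 3 or RevScapTKO replicate 1 of ZT4, ZT10 or ZT16). The same held for Rara (0.0215 without RevDKO ZT10 replicate 3 and 0.0369 without RevScapTKO ZT16 replicate 1) and Rxra (0.0488 without Control ZT22 replicate 2). Against Control, RevScapTKO added Nr6a1 without Control ZT4 replicate 3 (0.0377) and Nr2c2 without RevScapTKO ZT4 replicate 2 (0.0222), and RevDKO added Rara without Control ZT10 replicate 3 (0.0481) or RevDKO ZT10 replicate 1 (0.0403).

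Rara, retinoic acid receptor α, was 47.3, 50.3 and 52.3 RPKTM at ZT4, 67.3, 46.5 and 39.3 at ZT10, 41.002, 47.4 and 51.1 at ZT16 and 53.7, 48.4 and 51.01 at ZT22 in Control. In RevScapTKO it was 28.1, 29.9 and 36.2 RPKTM at ZT4, 32.1, 27.7 and 32.4 at ZT10, 39.99, 25.2 and 31.3 at ZT16 and 32.3, 32.7 and 40.3 at ZT22. RevScapTKO was below Control at each of the 4 times, as held for 1.85% of all genes in this direction, and RevDKO ranged from 24.1 to 51.5 RPKTM. Rara was 1.52-fold lower in RevScapTKO than in Control (log2 difference -0.60 ± 0.11, adjusted p = 8.77e-05).

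Nr2c1, the orphan receptor TR2, was 64.9, 71.3 and 85.1 RPKTM at ZT4, 66.1, 66.1 and 71.2 at ZT10, 61.98, 59.6 and 53.9 at ZT16 and 57.95, 62.2 and 40.6 at ZT22 in Control. RevDKO held 68.5, 129.7 and 78.6 RPKTM at ZT4, 52.01, 113 and 51.1 at ZT10, 40.8, 85.003 and 56.3 at ZT16 and 46.5, 67.9 and 76.9 at ZT22. RevScapTKO held 43.7, 64.8 and 53.8 RPKTM at ZT4, 40.4, 23.7 and 46.8 at ZT10, 40.2, 40.6 and 40.04 at ZT16 and 36.1, 47.6 and 51.6 at ZT22. RevScapTKO lay below RevDKO at ZT4, ZT10 and ZT16 (3.32% of all genes did so at 3 or more times) and below Control at 3 of 4 times (5.30% of all genes did). Nr2c1 differed on the log2 scale by -0.65 ± 0.15 against RevDKO (adjusted p = 0.00137) and -0.53 ± 0.15 against Control (adjusted p = 0.00512).

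Rxrg, the RXR form best known from muscle and brain, was 18.03, 16.1 and 17.7 RPKTM at ZT4, 16.8, 17.2 and 18.03 at ZT10, 16.7, 7.12 and 9.68 at ZT16 and 21.3, 10.2 and 12.2 at ZT22 in Control. RevDKO gave 10.2, 16.2 and 15.7 RPKTM at ZT4, 11.5, 27.5 and 17.7 at ZT10, 11.9, 17.5 and 11.9 at ZT16 and 15.6, 16.5 and 13.9 at ZT22. RevScapTKO gave 11.01, 13.5 and 12.2 RPKTM at ZT4, 13.4, 7.98 and 16.9 at ZT10, 10.7, 11.3 and 5.38 at ZT16 and 9.68, 8.94 and 5.97 at ZT22. RevScapTKO overlapped with RevDKO in the light phase and lay below it at ZT16 and ZT22. The log2 difference was -0.53 ± 0.17 against RevDKO (adjusted p = 0.0187) and -0.48 ± 0.17 against Control (adjusted p = 0.0243). The call against Control was lost without Control ZT16 replicate 1, Control ZT22 replicate 1, RevScapTKO ZT10 replicate 2 or RevScapTKO ZT16 replicate 3 (adjusted p between 0.0579 and 0.0591).

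Nr2f6, the orphan receptor EAR2, was 199, 133 and 116 RPKTM at ZT4, 154, 170.4 and 159 at ZT10, 219, 241 and 296 at ZT16 and 237, 302 and 257 at ZT22 in Control. RevDKO values were 144, 121 and 133 RPKTM at ZT4, 194, 80.5 and 182 at ZT10, 208, 146 and 193 at ZT16 and 221, 241 and 161 at ZT22. In RevScapTKO it was 151, 79.02 and 112 RPKTM at ZT4, 172, 144 and 146 at ZT10, 183, 134 and 153 at ZT16 and 205, 155 and 147 at ZT22. Control and RevScapTKO overlapped in the light phase and were apart at ZT16 and ZT22, where Control was high. The daily means differed by -0.45 ± 0.13 on the log2 scale (adjusted p = 0.0069).

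Esrra, for oestrogen-related receptor α, a regulator of oxidative phosphorylation genes, was 44.4, 39.8 and 40.6 RPKTM at ZT4, 66.7, 81.9 and 60.2 at ZT10, 64.4, 88.3 and 90.4 at ZT16 and 76.7, 60.5 and 59.1 at ZT22 in Control. RevDKO values were 35.4, 26.7 and 36.6 RPKTM at ZT4, 63.8, 43.97 and 81.9 at ZT10, 95.5, 71.7 and 92.8 at ZT16 and 81.9, 72.1 and 56.9 at ZT22. In RevScapTKO it was 38.1, 26.3 and 26.2 RPKTM at ZT4, 71.3, 47.3 and 40.3 at ZT10, 84.6, 49.9 and 57.6 at ZT16 and 52.3, 50.9 and 59.96 at ZT22. Control and RevScapTKO were apart at ZT4 alone. Their log2 difference was -0.37 ± 0.12 (adjusted p = 0.0152).

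Markers of other liver cells moved with the RevScapTKO comparisons. All 10 macrophage markers were higher in RevScapTKO than in Control hepatocyte libraries and than in RevDKO (median log2 differences of 1.21 and 1.09), as were 7 of 8 endothelial markers against Control and 5 of 8 against RevDKO, and 7 of 8 stellate markers against each. Between RevDKO and Control none of the 3 lists had a member that passed in limma, with 0, 0 and 2 members at an unadjusted p under 0.05. With the macrophage marker score as a covariate, Esr1, Esrrg, Pparg and Rara still passed between RevScapTKO and Control (log2 differences of -2.17, -1.99, -1.61 and -0.62). Nr1i3, Nr2c1, Nr2f6, Esrra and Rxrg did not (adjusted p of 0.335, 0.561, 0.131, 0.19 and 0.689). Between RevScapTKO and RevDKO Ppard still passed at -1.56 (adjusted p = 7.79e-05), and Esrrg, Nr2c1 and Rxrg did not (0.656, 0.423 and 0.702). All 6 receptors that passed between RevDKO and Control did so with the covariate.

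**Figure D3:**
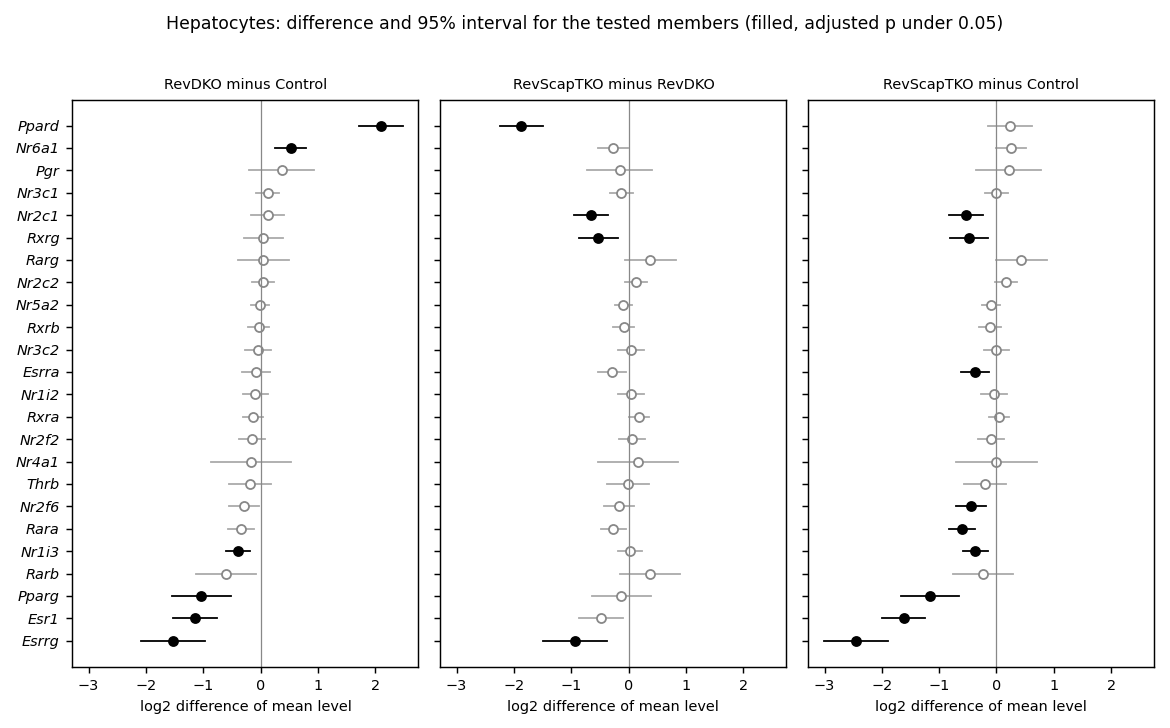
Log2 difference of the daily mean for the 24 tested receptors in 3 hepatocyte comparisons, with 95% intervals. Filled points passed an adjusted p of 0.05. Ppard lies at 2.10 for RevDKO against Control and at -1.869 for RevScapTKO against RevDKO, and Esrrg at -2.45 for RevScapTKO against Control.

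The abundant receptors Rxra, Nr3c1, Nr5a2, Thrb, Nr1i2, Nr2c2 and Nr3c2 passed in none of the 3 comparisons. The means of Rxra at ZT4, ZT10, ZT16 and ZT22 were 1372, 1224, 1197 and 1097 RPKTM in Control, 948, 1047, 1299.8 and 1142 in RevDKO and 1176, 1123, 1529 and 1222 in RevScapTKO. RevDKO libraries were below those of Control at ZT4 and ZT10 and overlapped with them in the dark phase, and the 95% interval of the difference was -0.31 to 0.04 on the log2 scale. For Nr3c1 the means were 456, 580.01, 556 and 460.3 RPKTM in Control, 571, 596, 530.2 and 520.4 in RevDKO and 463, 605, 479 and 492 in RevScapTKO, with an interval of -0.07 to 0.32 between RevDKO and Control. Nr1i2 means were 202, 207, 238 and 223 RPKTM in Control, 202, 187, 227 and 199 in RevDKO and 210.3, 208, 233 and 197 in RevScapTKO, with an interval of -0.31 to 0.13. All 3 intervals include 0 and so leave the direction unresolved. Thrb means were 231, 220.2, 239 and 221 RPKTM in Control, 242, 209, 225 and 182 in RevDKO and 197, 196, 221 and 187 in RevScapTKO. The last RevDKO mean contains replicate 2 of ZT22 at 41.97 RPKTM, against 251 and 253 in the others. Nr2c2 means were 204, 165, 173 and 176 RPKTM in Control, 203, 178, 162 and 197 in RevDKO and 193, 201, 210.0 and 206 in RevScapTKO. Rarb, Rarg, Rxrb, Pgr, Nr2f2 and Nr4a1 passed nowhere either. Of these Rarb, retinoic acid receptor β, had the lowest p between RevDKO and Control (12.8 to 35.4 RPKTM in Control and 1.21 to 31.7 in RevDKO, log2 difference -0.61 ± 0.26, adjusted p = 0.207).

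The third question was the daily rhythm. In Control hepatocytes 5 of 24 receptors passed the test of a 24 h cosine, while 8.29% of all genes did. They were Ppard (peak to trough 2.26 on the log2 scale, peak ZT20.3, adjusted p = 0.000764), Nr5a2 (0.80 on the log2 scale, peak ZT5.84, adjusted p = 0.00229), Nr3c2 (1.09 on the log2 scale, peak ZT5.63, adjusted p = 0.00456), Nr2f6 (1.05 on the log2 scale, peak ZT18.8, adjusted p = 0.0233) and Esrra (0.94 on the log2 scale, peak ZT15.6, adjusted p = 0.0314). Nr5a2 and Nr3c2 were thus high in the light phase, and Ppard, Nr2f6 and Esrra in the dark phase. The call of Esrra was lost without any one of Control ZT4 replicates 1, 2 and 3 and ZT16 replicates 2 and 3 (adjusted p up to 0.128), and that of Nr2f6 without any one of ZT4 replicates 2 and 3, ZT16 replicate 3 and ZT22 replicate 2 (up to 0.0717). Macrophage markers rise over the day in the same libraries, and with their score as a covariate Ppard and Nr3c2 still passed (adjusted p = 0.00537 and 0.00541) while Nr5a2, Nr2f6 and Esrra did not.

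Nr5a2 was 337, 311 and 323 RPKTM at ZT4, 316, 287 and 243 at ZT10, 194, 199 and 198 at ZT16 and 256, 204 and 194 at ZT22 in Control. Its means at these times were 286, 269.6, 230.2 and 216 RPKTM in RevDKO and 255, 240.3, 210.4 and 232 in RevScapTKO. Nr3c2 was 171, 147 and 258 RPKTM at ZT4, 175, 133 and 145 at ZT10, 109.9, 80.2 and 91.5 at ZT16 and 103, 131 and 97.2 at ZT22 in Control. Both genes had their highest Control mean at ZT4 and their lowest at ZT16. In RevDKO Nr3c2 was 199, 180.4 and 159 RPKTM at ZT4, 156, 89.2 and 142 at ZT10, 94.8, 80.5 and 93.04 at ZT16 and 147, 114 and 117 at ZT22, and its means in RevScapTKO were 138, 153, 105 and 134.

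In RevDKO 3 of 24 receptors passed the rhythm test, while 4.08% of all genes did. They were Esrra (1.38 on the log2 scale, peak ZT16.5, adjusted p = 0.00412), Nr3c2 (0.99 on the log2 scale, peak ZT4.02, adjusted p = 0.0224) and Nr1i3 (0.86 on the log2 scale, peak ZT8.86, adjusted p = 0.0395). The call of Nr1i3 was lost without any one of 10 RevDKO libraries, all but ZT4 replicate 1 and ZT16 replicate 2 (adjusted p up to 0.131) and with the macrophage marker score (0.21), and that of Nr3c2 without any one of ZT4 replicates 1 and 2 and ZT16 replicates 1, 2 and 3 (up to 0.0773). Pgr passed without RevDKO ZT10 replicate 1 (0.0199), and Esr1 without RevDKO ZT10 replicate 3 (0.0277) or RevScapTKO ZT4 replicate 2 (0.0401). In RevScapTKO no receptor passed in limma (0.683% of all genes did), and 1 was at an unadjusted p under 0.05 (Esrra, adjusted p = 0.0593). A JTK_CYCLE rule modelled on that of the study, with a filter of its own, called 4 (20.8% of the 12838 genes it tested). Esrra passed there without RevDKO ZT10 replicate 2 (0.0422), RevScapTKO ZT4 replicate 1 (0.016) or RevScapTKO ZT10 replicate 2 (0.0446). A rhythm that passes in 1 genotype and not in another is not thereby shown to differ. Tested directly with limma, no receptor passed for a changed rhythm between RevDKO and Control, where 0.203% of all genes did. None passed between RevScapTKO and RevDKO either (0% of all genes did). Not passing does not show that a rhythm stayed the same. At an unadjusted p under 0.05 there were 3 in the first comparison (Ppard, Rxra and Pgr) and 1 in the second (Pgr). The peak to trough range of Ppard was 0.59 in RevDKO against 2.26 in Control (limma, adjusted p = 0.669 for the changed rhythm).

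**Figure D4:**
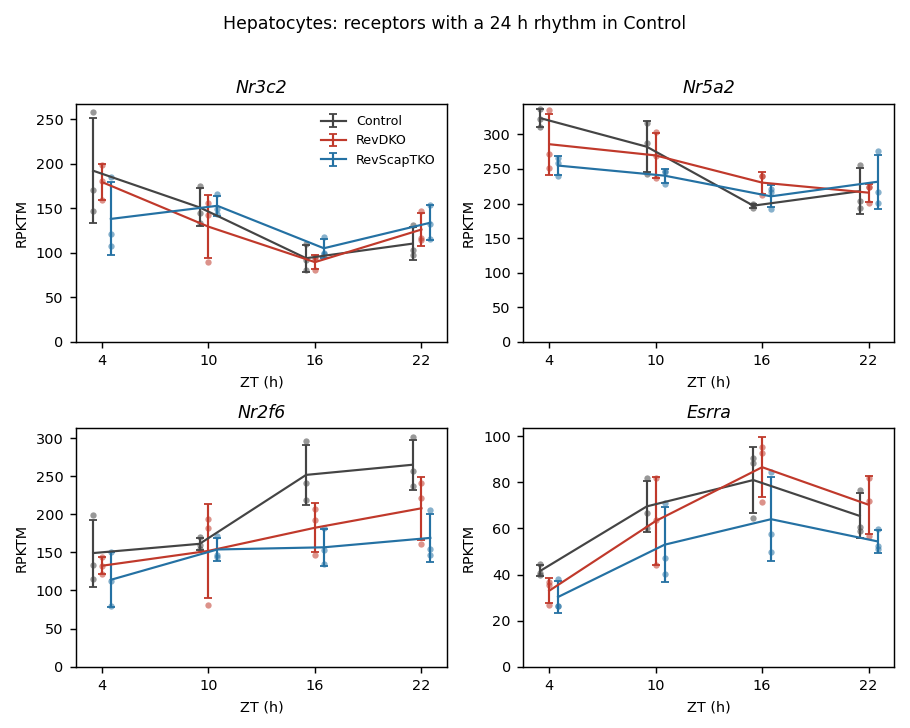
Levels in RPKTM of Nr3c2, Nr5a2, Nr2f6 and Esrra in hepatocytes over ZT in hours, with libraries as points, means of 3 libraries as lines and SD as bars, coloured by genotype. In Control Nr3c2 and Nr5a2 are highest at ZT4, Esrra at ZT16 and Nr2f6 at ZT22.

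Among ScapKO hepatocytes 14 receptors averaged over 100 RPKTM, led by Rxra with 2967 ± 616 (SD, n = 12), and 2 of 24 tested receptors passed the rhythm test, while 1.85% of 12724 genes did. Rxra was 3038, 3281 and 3665 RPKTM at ZT4, 3982, 3585 and 3466 at ZT10, 2323, 2646 and 2592 at ZT16 and 2094, 2504 and 2431 at ZT22 (0.76 on the log2 scale, peak ZT7.90, adjusted p = 0.0223), with every light-phase library above every dark-phase one. Esr1 was 182, 244 and 130.2 RPKTM at ZT4, 246, 334 and 282 at ZT10, 391, 366 and 595 at ZT16 and 339, 256 and 238 at ZT22 (1.289 on the log2 scale, peak ZT15.8, adjusted p = 0.0345). The highest Esr1 value is that of the library with Xist, and without it neither passed (adjusted p = 0.167 for Esr1 and 0.0598 for Rxra). Leaving out any one library of ZT10 or ZT16 also lost both calls, as did ZT4 replicates 1 and 3 for Esr1 and ZT4 replicate 2 for Rxra (adjusted p from 0.0505 to 0.12). Nr4a1 passed without ZT10 replicate 3 (0.0357), Nr1i3 without ZT22 replicate 2 (0.0217) and Esrra without ZT22 replicate 3 (0.0397). Ppard was 27.3, 24.4 and 44.6 RPKTM at ZT4, 27.1, 32.1 and 28.5 at ZT10, 37.6, 35.03 and 31.6 at ZT16 and 45.6, 152 and 92.7 at ZT22 (adjusted p = 0.114, and 0.0161 without ZT22 replicate 1). Its highest value stands in ZT22 replicate 2, the library with the highest macrophage, endothelial and stellate marker sums of the table (3276, 5974 and 4564 RPKTM). That library also held 1006 RPKTM of Scap, the targeted gene, against 205 and 339 in ZT22 replicates 1 and 3.

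In macrophage libraries 25 of the 32 receptors passed the filter, all but Vdr, Pgr, Esr2, Hnf4g, Nr4a2, Nr4a3 and Nr5a1. Rxra led again with 446 ± 132 RPKTM (SD, n = 36), followed by Nr3c1 with 181 ± 55.7 and Nr1i3 with 175 ± 107, which overlap within their spread. Nr1i3 and Nr5a2 are known as hepatocyte receptors, and the 9 hepatocyte markers summed to between 32705 and 1621740 RPKTM in these libraries. The 10 macrophage markers summed to between 2971 and 36546. After quantile normalization the top value is the same in each of these libraries and makes up 27.5% of all RPKTM in it. A marker sum thus depends on the ranks of its top genes and is no measure of the share of hepatocyte RNA.

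Between RevDKO and Control macrophage libraries 1 of 25 receptors passed, Ppard, while 0.574% of 13947 genes did, 0.402% higher and 0.172% lower. Ppard was 24.5, 8.88 and 16.1 RPKTM at ZT4, 8.43, 6.80 and 6.76 at ZT10, 9.02, 33.6 and 31.6 at ZT16 and 11.3, 22.7 and 87.4 at ZT22 in Control. In RevDKO it was 85.7, 99.04 and 113 RPKTM at ZT4, 91.6, 80.6 and 59.99 at ZT10, 87.9, 22.9 and 144 at ZT16 and 60.9, 47.02 and 49.998 at ZT22. RevDKO was above Control at ZT4 and ZT10, and the groups overlapped in the dark phase. The log2 difference was 2.07 ± 0.31 (4.20-fold, adjusted p = 0.000222). It was 1.94 with the hepatocyte marker score as a covariate (limma, adjusted p = 0.000285). Without the 5 libraries of low correlation, a choice made after seeing the data, it was 2.31 (adjusted p = 0.00166). Ppard was higher in RevDKO hepatocytes too, and a score of hepatocyte RNA does not remove a difference that hepatocytes themselves carry. Whether macrophages share in the Ppard difference was not tested. The hepatocyte markers summed to 50376 to 1621740 RPKTM in Control (median 94755) and 50568 to 108667 in RevDKO (median 79650). The highest sum, in Control ZT22 replicate 1, follows from the fixed top value, and that library also had the highest macrophage marker sum (36546 RPKTM). Median sums of macrophage markers were 16410.5 RPKTM in Control and 8455 in RevDKO.

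Between RevScapTKO and RevDKO macrophage libraries Ppard was again the 1 receptor of 25 that passed, while 3% of all genes did, 1.23% higher and 1.78% lower. RevScapTKO held 27.7, 25.4 and 27.4 RPKTM at ZT4, 12.8, 29.8 and 40.6 at ZT10, 40.6, 50.3 and 36.97 at ZT16 and 35.1, 9.71 and 69.6 at ZT22. It lay below RevDKO at ZT4 and ZT10. The log2 difference was -1.22 ± 0.31 (2.33-fold lower, adjusted p = 0.0234), and the call was lost with the hepatocyte marker score (-0.84, adjusted p = 0.109) and without RevScapTKO ZT22 replicate 2 (adjusted p = 0.0553). Against Control no receptor passed in limma, while 3.76% of all genes did (2.38% higher and 1.38% lower), and 3 were at an unadjusted p under 0.05 (Ppard, Esrrg and Nr1i2). Ppard differed there by 0.85 ± 0.31 (95% interval 0.21 to 1.489, adjusted p = 0.133) and was higher without overlap at 3 of 4 times, as held for 0.731% of all genes at 3 or more. It passed without Control ZT22 replicate 3 (0.0255) or RevScapTKO ZT22 replicate 2 (0.0357), and Esrrg without Control ZT22 replicate 1 (0.0339).

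Esr1, Nr5a2 and Nr1i3 did not pass between RevDKO and Control macrophages but did without 1 library. Esr1 was 7.34, 6.16 and 17.2 RPKTM at ZT4, 15.97, 14.3 and 14.6 at ZT10, 10.8, 21.9 and 30.1 at ZT16 and 17.3, 10.9 and 27.3 at ZT22 in Control. In RevDKO it was 0, 0 and 7.92 RPKTM at ZT4, 11.04, 0 and 12.7 at ZT10, 0.0990, 0.0700 and 21.2 at ZT16 and 24.8, 33.3 and 20.7 at ZT22. The RevDKO libraries were below Control at ZT10 alone, and 5 of them (ZT4 replicates 1 and 2, ZT10 replicate 2 and ZT16 replicates 1 and 2) held under 0.1 RPKTM, 3 of which are low-correlation libraries. The log2 difference was -1.52 ± 0.45 (adjusted p = 0.127, and 0.00984 without RevDKO ZT16 replicate 3, where RevScapTKO against RevDKO gave 0.0277). Nr5a2 ranged from 23.2 to 67.3 RPKTM in Control and from 36.1 to 84.7 in RevDKO (log2 difference 0.77 ± 0.22, adjusted p = 0.123, 0.0313 without Control ZT22 replicate 3 and 0.0414 without RevScapTKO ZT22 replicate 2). Nr1i3 ranged from 13.9 to 393 RPKTM in Control and from 79.1 to 395 in RevDKO (log2 difference 0.74 ± 0.31, adjusted p = 0.287, and 0.0162 without Control ZT22 replicate 3). Of the abundant receptors, Rxra had means of 573, 489, 475 and 279.96 RPKTM over the 4 times in Control, 536, 515, 331 and 310.4 in RevDKO and 450.1, 449, 527 and 414 in RevScapTKO. Its lowest values, 82.7 RPKTM in Control ZT22 replicate 2 and 101 in RevDKO ZT16 replicate 2, belong to 2 of the low-correlation libraries. Nr1i3 means were 298, 127, 123 and 69.3 RPKTM in Control, 222, 375, 165 and 88.7 in RevDKO and 126, 145, 234 and 123 in RevScapTKO. Nr3c1 means were 180.4, 199.9, 175 and 226 RPKTM in Control, 191, 202, 211 and 151 in RevDKO and 167, 190.5, 119 and 157 in RevScapTKO.

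**Figure D5:**
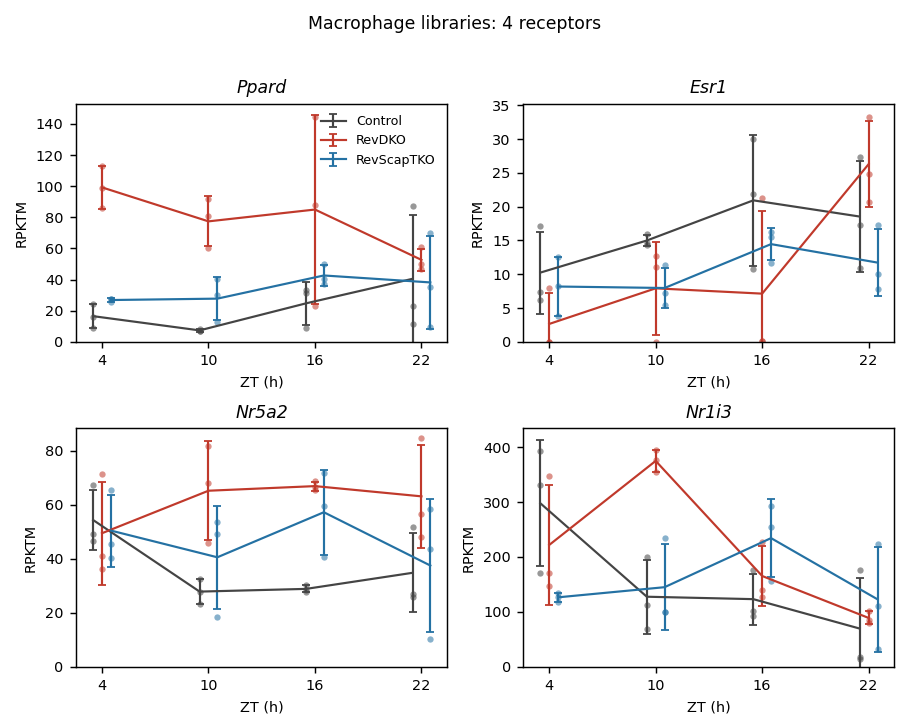
Levels in RPKTM of Ppard, Esr1, Nr5a2 and Nr1i3 in macrophage libraries over ZT in hours, with libraries as points, means of 3 libraries as lines and SD as bars, coloured by genotype. Ppard in RevDKO lies above Control at ZT4 and ZT10.

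No receptor passed the rhythm test in macrophages in limma. Of all genes 0.0502% passed in Control, 2.53% in RevDKO, 0.0789% in RevScapTKO and 0% in ScapKO. The JTK_CYCLE rule called 6, 4, 2 and 8 in the same order. Of the genes that it tested, which differ from those in limma, it called 20.2%, 28.2%, 15.4% and 21.4%. At an unadjusted p under 0.05 there were 3 receptors in Control (Nr1i3, Ppard and Rarg), 3 in RevDKO (Nr1i3, Rxra and Esr1), 0 in RevScapTKO and 4 in ScapKO (Rarg, Nr2f6, Nr6a1 and Vdr). Nr1i3 passed without Control ZT22 replicate 3, in Control (adjusted p = 0.00551) and in RevDKO (0.0252). No gene passed the limma test of a changed rhythm between RevDKO and Control or between RevScapTKO and RevDKO (0% each). There were 1 receptor (Ppard) and 0 receptors at an unadjusted p under 0.05, beside 5.50% and 3.57% of all genes. Not passing does not show that a rhythm stayed the same. Of the ScapKO macrophage libraries, in which 26 receptors passed the filter, ZT22 replicate 2 stood apart with a median correlation of 0.766. It held 2191 RPKTM of Nr1i3 against 54.03 to 503 in the other 11 libraries, and 268 of Ppard against 81.6 to 118, beside the highest hepatocyte marker sum of the table, 129681.

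Known targets of these receptors were counted from lists that were chosen with earlier results of these data known. Of 8 CAR and PXR targets 5 passed between RevDKO and Control hepatocytes, 3 higher and 2 lower, while 4.43% of all genes passed (2% higher and 2.43% lower). These shares of all genes stand behind each count between RevDKO and Control below. Cyp3a11, the main drug-metabolizing target of PXR, averaged 1614 ± 1214 RPKTM (SD, n = 12) for Control, 296 ± 61.98 for RevDKO and 2139.8 ± 2617 for RevScapTKO (log2 difference -2.14 ± 0.39 between RevDKO and Control, adjusted p = 0.000573). Cyp2b10, the classical CAR target, was 21.3 ± 21.8, 5.06 ± 5.86 and 3.58 ± 6.22 RPKTM in the same order (-1.78 ± 0.49, adjusted p = 0.0278). It was named after its values were seen, as the other gene that was lower. The uptake transporter Slco1a4 and Cyp2c55 were higher in RevDKO, by 1.28 ± 0.26 and 1.39 ± 0.36. In RevScapTKO 4 were higher and 3 lower than in Control (17.3% and 18.7% of all genes), and 3 higher and 1 lower than in RevDKO (13.5% and 12.7%). Since markers of macrophages, endothelial and stellate cells were higher in RevScapTKO, the lists were also counted with the macrophage marker score as a covariate, under which 5.97% of all genes passed against Control and 2.55% against RevDKO. CAR and PXR targets then gave 3 higher and 1 lower against Control and 1 higher (Alas1) against RevDKO. The 5 calls between RevDKO and Control held with the covariate.

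Of 5 thyroid hormone receptor targets Dio1, the deiodinase that activates thyroid hormone, alone passed between RevDKO and Control (105 ± 29.4 against 356 ± 120.3 RPKTM, log2 difference -1.74 ± 0.21, adjusted p = 5.02e-07). In RevScapTKO 3 were lower than in Control, with Thrsp at -3.31 ± 0.34 and Me1 at -1.52 ± 0.24, both also known as SREBP targets, and these 2 passed with the covariate as well while Dio1 did not. Of all genes 18.7% were lower there. With the covariate Klf9 passed too, as higher in RevScapTKO than in Control, where 5.97% of all genes passed. Of 7 retinoic acid genes 5 were tested and 2 were lower in RevDKO than in Control. Cyp26a1, the enzyme that clears retinoic acid, was 88.9 ± 111 RPKTM in Control and 7.94 ± 8.10 in RevDKO (-2.93 ± 0.49, adjusted p = 0.000139), and Aldh1a1, which makes it, differed by -0.56 ± 0.15.

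Of 10 PPARγ and PPARδ targets 9 were tested and 2 were lower in RevDKO than in Control, none higher. These were Mogat1, of triglyceride synthesis (-1.35 ± 0.28, adjusted p = 0.00202), and the fatty acid transporter Cd36 (-1.05 ± 0.25, adjusted p = 0.00995). Pdk4, a known PPARδ target, was 23.7 ± 12.8 RPKTM in Control and 26.4 ± 10.8 in RevDKO and did not pass. From RevDKO to RevScapTKO 2 were higher and 3 lower, with Pdk4 at -0.79 ± 0.26 (adjusted p = 0.0233), beside 13.5% and 12.7% of all genes, and with the covariate 1 of the 5 still passed (Plin2, lower). None of 6 ERR targets passed between RevDKO and Control (limma, 0 at an unadjusted p under 0.05), and 4 (Idh3a, Cox5b, Cycs and Ndufb4, of mitochondrial respiration) were lower in RevScapTKO than in either other genotype, as were 18.7% of all genes against Control and 12.7% against RevDKO. With the macrophage marker score as a covariate 0 of the 6 passed in either comparison in limma (0 and 0 at an unadjusted p under 0.05). Of 10 glucocorticoid receptor targets 1 passed between RevDKO and Control (Zbtb16, 0.97 ± 0.28, adjusted p = 0.0417), and 3 were higher in RevScapTKO than in Control, of which Zbtb16 alone passed with the covariate. Of 2 NR5A2 targets Cyp8b1, the enzyme of cholic acid synthesis, was higher in RevDKO (0.89 ± 0.16, adjusted p = 0.000399) and in RevScapTKO (0.74 ± 0.16, adjusted p = 0.000638) than in Control, the latter not with the covariate (adjusted p = 0.067). None of 12 coactivators and corepressors passed between RevDKO and Control (limma, 2 at an unadjusted p under 0.05), and 3 were higher in RevScapTKO than in Control (Nrip1, Ncoa3 and Ep300, with Ep300 at 0.30 ± 0.11), a share near the 17.3% of all genes. Median sums of macrophage markers were 2761 RPKTM in RevScapTKO and 845 in Control, and with their score as a covariate 0 of the 12 passed in limma (1 at an unadjusted p under 0.05). The vitamin D target did not pass the filter.

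In macrophage libraries 1 of 7 tested CAR and PXR targets was lower in RevDKO than in Control (Cyp3a11, -2.59 ± 0.54, adjusted p = 0.0125), and 1 of 10 glucocorticoid receptor targets was higher (Zbtb16, 1.92 ± 0.44, adjusted p = 0.0311). Of all genes 0.172% were lower and 0.402% higher. Cyp3a11 is a hepatocyte gene, and the sum of 9 hepatocyte markers exceeded that of macrophage markers in the median of each genotype in these libraries. No tested target of PPARγ and PPARδ (8), ERR (6) or NR5A2 (2) and none of 12 cofactors passed in limma in macrophages in any of the 3 comparisons. At an unadjusted p under 0.05 there were 2, 0, 1 and 1 members of these 4 lists, in this order, between RevDKO and Control. Of 5 thyroid hormone receptor targets Thrsp, of fatty acid synthesis (-3.86 ± 0.40, adjusted p = 4.67e-08), and Me1, the malic enzyme (-1.45 ± 0.30, adjusted p = 0.00344), were lower in RevScapTKO than in RevDKO macrophages, and of 5 retinoic acid genes Cyp26a1 and Aldh1a1 were lower than in Control (-2.05 ± 0.47 and -0.70 ± 0.19). Of all genes 1.78% were lower in the first of these comparisons and 1.38% in the second. Thrsp averaged 311 ± 195 RPKTM in RevDKO and 31.4 ± 33.9 in RevScapTKO macrophage libraries. In hepatocyte libraries, which were normalized separately, it averaged 1565 ± 892 and 167 ± 174. Me1 averaged 217 RPKTM in RevDKO and 58.4 in RevScapTKO hepatocytes. Means in Control and RevScapTKO hepatocytes were 88.9 and 7.52 RPKTM for Cyp26a1 and 3284 and 2633 for Aldh1a1. Levels are not compared between the cell types. With the hepatocyte marker score as a covariate Cyp3a11, Thrsp, Me1, Cyp26a1 and Aldh1a1 passed in the comparisons named, at -2.75, -3.35, -1.12, -1.94 and -0.59. A score of hepatocyte RNA does not remove a difference that the hepatocytes themselves carry, and whether macrophages share in these differences was not tested. Of the 7 CAR and PXR targets 2 were higher and 1 lower in RevScapTKO against each of the other genotypes (1.23% and 1.78% of all genes against RevDKO, 2.38% and 1.38% against Control).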

How the data were processed

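The 96 RNA-seq libraries were made with a stranded TruSeq kit. The authors aligned reads with STAR to mm9 and counted them with HOMER (versions and strand setting not given in the sources used here), and deposited RPKM values on a scale of 10 times RPKM (RPKTM), quantile normalized in each of 4 tables, so every library of a table has the same sorted values and its depth is unknown. A gene was represented by its transcript of highest mean. Genes over 5 RPKTM in at least 3 libraries were fitted as log2(RPKTM + 1) with limma 3.58.1 (trend, R 4.3.3), with 1 mean for each genotype and time, over all 3 genotypes of a cell type or over ScapKO alone. Mean levels were compared over the 4 times, and rhythms by an F test of 24 h cosine and sine terms. Adjusted p-values are Benjamini-Hochberg values over all genes fitted, with a threshold of 0.05, and all p are two-sided or F tests. These p-values measure the spread between libraries. The scripts, in Python 3.11.15, were tested on simulated data. The study called rhythms with JTK_CYCLE on a series entered 2 times, which lowers p without adding data. A rank test modelled on it, with an expression filter applied within each genotype, is an alternative here and is called the JTK_CYCLE rule. It is not the program of the study, and its numbers of tested genes differ from those in limma. Other alternatives were offsets of 0.1 and 5, no filter or 6 libraries over 10 RPKTM, all transcripts, only the genotypes compared, a replicate block, a marker score covariate and each library left out. Members and lists were chosen with earlier results of these data known. Receptors that passed or averaged over 100 RPKTM are described with all groups, and at most 3 genes of a list are named by smallest adjusted p. Where a count of 5 or fewer names more, these were named after their values were seen. Promoters were read from mm9 before the start of that transcript.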

Additional observations from a re-analysis of the deposited data

How the results depend on the processing

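Depth limits all values in an unknown way, 3 libraries a group leave wide intervals for low genes, and every result rests on the authors' quantile normalization. Of 271 alternative values for 31 calls of single receptors, 245 kept direction and side of the threshold, 26 lost the call and 0 reversed, and 14 of the 31 calls held under every alternative. Of 196 alternative counts over 18 comparisons, 165 stayed within 1.5 times the count reported and 31 did not. The cause of these moves was not tested.

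With the marker score of the other cell type as a covariate, receptors called in hepatocytes numbered 2 between RevScapTKO and RevDKO (340 of all genes, against 3498), 4 between RevScapTKO and Control (795 against 4789), 2 for rhythm in Control (335 against 1105) and 4 in ScapKO (638 against 236). In macrophages they numbered 2 between RevDKO and Control and 1 between RevScapTKO and Control (1447 against 524 of all genes). Some of these receptors, also between RevScapTKO and RevDKO hepatocytes, had not been called without the covariate. With only the genotypes compared, 2 receptors were called between RevDKO and Control macrophages. Without a filter 0 receptors were called for rhythm in ScapKO hepatocytes (100 of all genes against 236).

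The JTK_CYCLE rule with the series entered 2 times called 9 receptors in Control (3749 of all genes), 9 in RevDKO (3834 against 544), 4 in RevScapTKO (2674 against 91) and 8 in ScapKO hepatocytes (2504), and 6, 4, 2 and 8 in Control, RevDKO, RevScapTKO and ScapKO macrophages (2569, 3842, 1931 and 3083 against 7, 353, 11 and 0). Entered once, it called 4 in ScapKO hepatocytes (665), and 2 in RevDKO and 2 in ScapKO macrophages (671 and 467).

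Leaving out 1 library at a time gave 3 to 5 rhythmic receptors in Control hepatocytes, 1 to 4 in RevDKO, 0 to 1 in RevScapTKO and 0 to 3 in ScapKO. In macrophages it gave 1 to 3 receptors between RevDKO and Control, 0 to 2 between RevScapTKO and RevDKO, 0 to 1 between RevScapTKO and Control, and 0 to 1 for rhythm in Control and in RevDKO. Without the 5 macrophage libraries of low correlation, an alternative chosen after seeing the data, 0 genes were rhythmic in RevDKO macrophages, against 353.

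The main fits did not pair samples by replicate number, and whether the numbers mark a pairing is not settled by these values. The deviations of same-numbered libraries had a median correlation of 0.0484 in hepatocytes (13 of 36 pairs over 0.1) and 0.0877 in macrophages (15 of 36). With a replicate block the RevDKO against Control count in hepatocytes was 6 receptors (672 of all genes, against 590), rhythm in ScapKO hepatocytes gave 1 receptor (184 against 236), and rhythm in RevDKO macrophages gave 1 (Nr1i3, 447 against 353). Rhythm in Control hepatocytes gave 6.

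Counts over all genes moved further under some settings. Fitting all transcripts gave 1086, 6791 and 9197 transcripts for the 3 hepatocyte comparisons, against 590, 3498 and 4789 genes, with the same receptor counts of 6, 4 and 9.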
